A study of Mus musculus with 6 samples.

Results

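The apolipoprotein genes Apoa1, Apoa2, Apoa4, Apoa5, Apob, Apoc1, Apoc2, Apoc3, Apoc4 and Apom were examined in mouse liver. They were chosen by symbol, and all 10 were found among the 23415 genes of the deposited table. The study compared 3 libraries of mice lacking alkaline sphingomyelinase (Enpp7) with 3 libraries of wildtype mice. Names of the knockout libraries start with K (82, 84 and 85) and those of the wildtype libraries with W (81, 83 and 90). These numbers are taken here as animal numbers. Strain C57BL/6 is given for both groups. No label states the genotype beyond these letters, and age, sex, diet and the knockout allele are not given in the sources used here. The tissue is labelled liver, whereas the design text speaks of intestine.

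Apolipoproteins are the protein part of lipoproteins, the particles that carry triglyceride and cholesterol through plasma. The liver secretes most of them. Apob is the scaffold of the triglyceride-rich particles, Apoa1 and Apoa2 form high-density lipoprotein (HDL), and the small exchangeable C proteins move between particles and tune lipoprotein lipase, the enzyme that unloads triglyceride in the capillaries. Apom, an HDL-bound lipocalin, carries sphingosine-1-phosphate, a product of the sphingolipid pathway that alkaline sphingomyelinase feeds in the gut. Whether these liver transcripts differed without the enzyme is the question addressed here.

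The deposited table holds 1 value per group, pooled over 3 libraries, and no value per mouse was used here. Levels are the authors' values, whose unit is not named and which are treated as FPKM from their layout. FPKM are scaled for transcript length and sequencing depth, so that on this reading levels of different genes can be set side by side. A ratio is the log2 of the knockout level over the wildtype level, given with the standard error (SE) that follows from the authors' z statistic. It is an error of their model and not a spread measured here. A gene counts as called at a deposited q under 0.05. Depth per library is unknown. In bulk liver, fewer cells of a type and less RNA per cell cannot be told apart.

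The sequences at the ends of the range of levels are shown first, since the members differed far more from each other than between genotypes. Each window runs from 250 bases before to 50 bases after a RefSeq start (GRCm38.p6, the build the files call mm10), is written 5′ to 3′ along the gene, and comes from the RefSeq table, which held 8 of the 10 members and no window for Apoc1 or Apoc3. Apoa2 (chr1:171224804-171225103, plus strand) had the highest level of all genes with a value. Apoa1 (chr9:46228380-46228679, plus strand) and Apoa4 (chr9:46240594-46240893, plus strand) are the highest and the lowest gene of a single cluster. Apoc2 (chr7:19677892-19678191, minus strand) starts so close to Apoc4 that 108 of the 300 bases of its window lie inside the Apoc4 locus. Capitals mark motif matches, searched on both strands with overlaps allowed. The nuclear receptor core motif was searched as AGGTCA. The forkhead element that many liver genes carry was searched as TGTTTAC. The letters of the TATA box were searched as TATAAA.
Apoa2: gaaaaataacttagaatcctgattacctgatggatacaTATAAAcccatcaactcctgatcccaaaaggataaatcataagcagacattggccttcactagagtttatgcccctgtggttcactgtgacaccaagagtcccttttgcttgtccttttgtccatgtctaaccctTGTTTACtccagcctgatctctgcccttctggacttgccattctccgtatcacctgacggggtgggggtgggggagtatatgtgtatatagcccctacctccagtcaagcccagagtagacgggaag
Apoa1: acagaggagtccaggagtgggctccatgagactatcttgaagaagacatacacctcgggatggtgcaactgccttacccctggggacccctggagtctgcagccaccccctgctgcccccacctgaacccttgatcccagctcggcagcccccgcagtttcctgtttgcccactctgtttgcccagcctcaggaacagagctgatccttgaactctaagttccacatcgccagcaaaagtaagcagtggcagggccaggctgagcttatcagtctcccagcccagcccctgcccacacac
Apoa4: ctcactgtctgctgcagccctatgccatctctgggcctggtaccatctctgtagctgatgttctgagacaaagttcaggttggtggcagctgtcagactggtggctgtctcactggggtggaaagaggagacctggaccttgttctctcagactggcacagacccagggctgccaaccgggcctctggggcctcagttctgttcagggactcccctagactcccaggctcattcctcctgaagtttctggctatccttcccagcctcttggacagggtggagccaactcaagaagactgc
Apoc2: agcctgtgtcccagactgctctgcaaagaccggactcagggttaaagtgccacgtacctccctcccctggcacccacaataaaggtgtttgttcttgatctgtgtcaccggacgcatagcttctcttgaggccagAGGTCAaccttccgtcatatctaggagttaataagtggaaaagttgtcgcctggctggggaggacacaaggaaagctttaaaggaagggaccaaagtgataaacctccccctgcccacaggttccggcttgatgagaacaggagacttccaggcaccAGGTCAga

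Among the 8 windows, AGGTCA was found in 2 (Apoc2, at 2 places, and Apoc4), TATAAA in 3 (Apoa2, Apoa5 and Apob) and TGTTTAC in 1 (Apoa2). Over all 32851 windows of the table the shares were 16.3%, 13.6% and 3.65%. The letters of an HNF4 element, CAAAGTCCA, stood in 0 of the 8 windows and in 0.475% of all windows. In the windows of Apoa1, Apoa4 and Apom none of the 4 motifs occurred. The TATAAA match begins at position -31 from the RefSeq start in Apoa5, at -60 in Apob and at -212 in Apoa2. These positions and absences hold for the RefSeq starts only. The GENCODE M21 annotation starts Apob 29 bases further upstream and Apoa5 25 bases further downstream. It starts Apoa1 50 bases and Apoa4 148 bases further upstream. The matches describe letters only.

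Of the 10 members, 5 were among the 100 most abundant listed genes in each group. Apoa4 stood lowest of the 10, at rank 920 in knockout livers and 818 in wildtype livers. Apoa2 ranked 1 among all listed genes with a value in knockout livers and 1 in wildtype livers, and Apoa1 ranked 3 in each. By the mean of both groups, Apoa2, Apoa1 and Apoc1 took places 1, 2 and 5, beside Fabp1, a fatty acid binding protein, the urinary protein genes Mup20 and Mup3, the acute phase genes Saa2 and Saa1, the protease inhibitor gene Serpina1e, and Ttr, transthyretin. The 10 members together had 53185 FPKM in knockout livers and 47095 FPKM in wildtype livers. The highest member stood 219-fold above the lowest in knockout livers and 188-fold in wildtype livers. The members' sum was 8.23% of the listed FPKM in knockout livers and 8.34% in wildtype livers. Apoa2 and Apoa1 alone made up 65.7% of the members' FPKM in knockout livers and 64.1% in the wildtype group. Apoe and Alb are listed at 0 in both groups and marked HIDATA, given in this layout to loci with too many fragments. Apoe and Alb thus have no value, and their place in these ranks and sums is unknown.

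**Figure D1:**
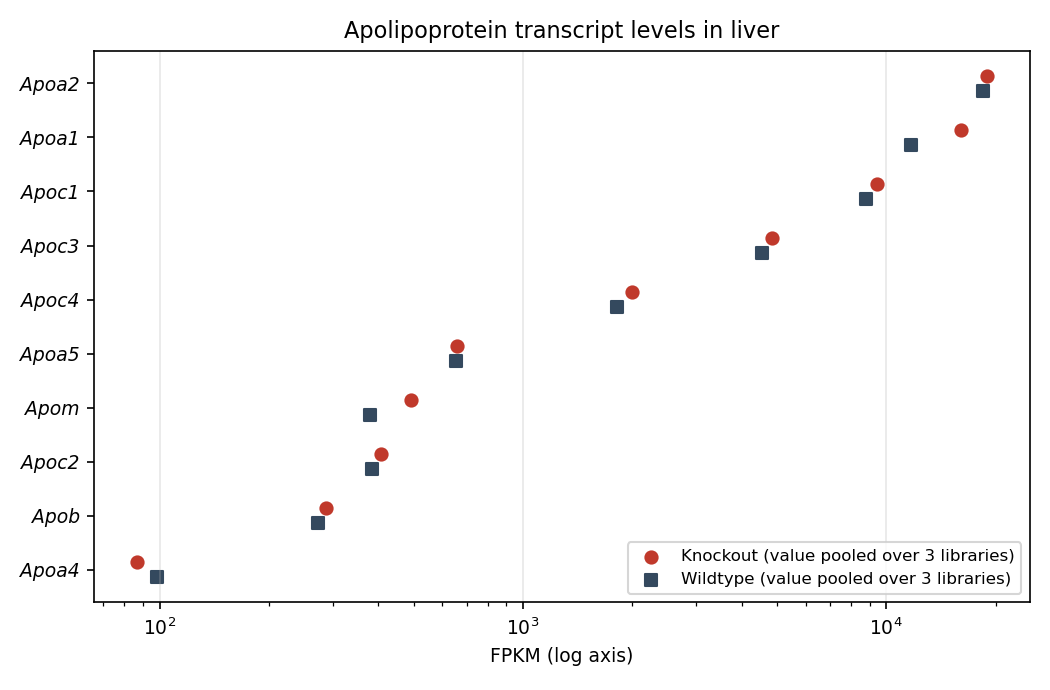
FPKM of the 10 apolipoprotein genes on a log axis, with the knockout value (red circle) above the wildtype value (dark square), each pooled over 3 libraries and without an error bar because no value per library was used. The genes run from Apoa2 at 18956 FPKM in knockout and 18510 FPKM in wildtype livers to Apoa4 at 86.5 FPKM in knockout and 98.6 FPKM in wildtype livers, and the paired symbols lie close together.

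No member was called. Of the 10, all of which were tested by the authors, 0 rose and 0 fell at q under 0.05 in the authors' deposited table, and 0 had an unadjusted p under 0.05. Each member's q was 0.9998. Over all 11515 tested genes 124 were called, or 1.08%, so that 0 of 10 is near the background. An unadjusted p under 0.05 was held by 5.29% of all tested genes. The ratios ran from -0.19 (Apoa4) to 0.46 (Apoa1) on the log2 scale. Their median was 0.09, beside -0.0012 over all tested genes, and 9 of 10 were above 0 as deposited, beside 49.9% of all tested genes. For 9 of the 10 the ratio was smaller than its own SE, Apom being the exception.

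The proteins of HDL came first in level. Apoa1 (chromosome 9, 46228630 to 46230466), the main HDL protein and the activator of cholesterol esterification by LCAT, was at 16007 FPKM in knockout livers and 11662 FPKM in wildtype livers. Its log2 ratio of 0.46 ± 0.68 (SE) was the largest of the 10 in size and also had the largest error, with an authors' deposited p of 0.502. Its 95% interval runs from 0.544-fold to 3.46-fold. Apoa2 (chromosome 1, 171225054 to 171226379), the other major HDL protein, was at 18956 FPKM in knockout livers and 18510 FPKM in wildtype livers, a log2 ratio of 0.03 ± 0.50. The level of Apoa1 was 0.844 times that of Apoa2 in knockout livers and 0.630 times in wildtype livers.

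Apom (chromosome 17, 35128997 to 35131752) was at 493 FPKM in knockout livers and 379 FPKM in wildtype livers. It had the smallest p of the 10, 0.104 in the authors' deposited table, with a log2 ratio of 0.38 ± 0.23 and a 95% interval from 0.948-fold to 1.79-fold. It did not pass. Apom and Apoc2 exchanged places in the order of levels between the groups, and the order of the other 8 was the same in both. In knockout livers Apom stood 1.22-fold above Apoc2, and in wildtype livers Apoc2 stood 1.02-fold above Apom. On the log2 scale the step of 0.28 lies slightly above the SE of those genes' ratios (0.23 and 0.24), and the step of 0.02 lies below it. No error of a single level is available, so the order of neighbouring levels could not be tested.

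Among genes that act on lipoprotein lipase, Apoc3 (chromosome 9, 46233051 to 46235297), an inhibitor of triglyceride clearance, was at 4852 FPKM in knockout livers and 4546 FPKM in wildtype livers (log2 ratio 0.09 ± 0.32). Apoc2 (chromosome 7, 19671579 to 19677941), the cofactor that the lipase needs, was at 406 FPKM in knockout and 385 FPKM in wildtype livers (0.07 ± 0.24). Apoa5 (chromosome 9, 46268608 to 46271919), a liver protein that promotes lipolysis, was at 658 FPKM in knockout and 655 FPKM in wildtype livers, the smallest difference of the 10 (0.01 ± 0.31). As deposited, the levels of inhibitor and activators stood in nearly the same proportion in both groups, without an error for that proportion. Apoc3 was 11.96 times the level of Apoc2 in knockout livers and 11.8 times in wildtype livers. It was 7.37 times the level of Apoa5 in knockout livers and 6.94 times in wildtype livers. After quantile normalization the proportion moved, with log2 ratios of -0.59 for Apoc3, -0.0079 for Apoc2 and -0.13 for Apoa5.

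Apoc1 (chromosome 7, 19689481 to 19692658), which slows the uptake of remnant particles, was at 9448 FPKM in knockout livers and 8772 FPKM in wildtype livers (0.11 ± 0.36). Apoc4 (chromosome 7, 19678084 to 19681460), a minor C apolipoprotein, was at 1991 FPKM in knockout and 1814 FPKM in wildtype livers (0.13 ± 0.27). Their differences lay within 1 SE. GENCODE M21 places a read-through gene, Gm44805, on the same strand across 6358 bases of Apoc2 and 3341 bases of Apoc4. How its reads were assigned is not stated, so the separate levels of Apoc2 and Apoc4 are uncertain.

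Apoa4 (chromosome 9, 46240844 to 46243458), a protein of chylomicrons and HDL made mainly in the intestine and also in mouse liver, had the lowest level and the only ratio below 0 as deposited. It was at 86.5 FPKM in knockout livers and 98.6 FPKM in wildtype livers (-0.19 ± 0.26). GENCODE lists the antisense gene Gm10680 over 839 bases and Gm47528 over 1337 bases of Apoa4, and Gm47544 over 1331 bases of Apoa5. Strandedness of the libraries is not stated, so reads of either strand may be counted in these 2 members.

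**Figure D2:**
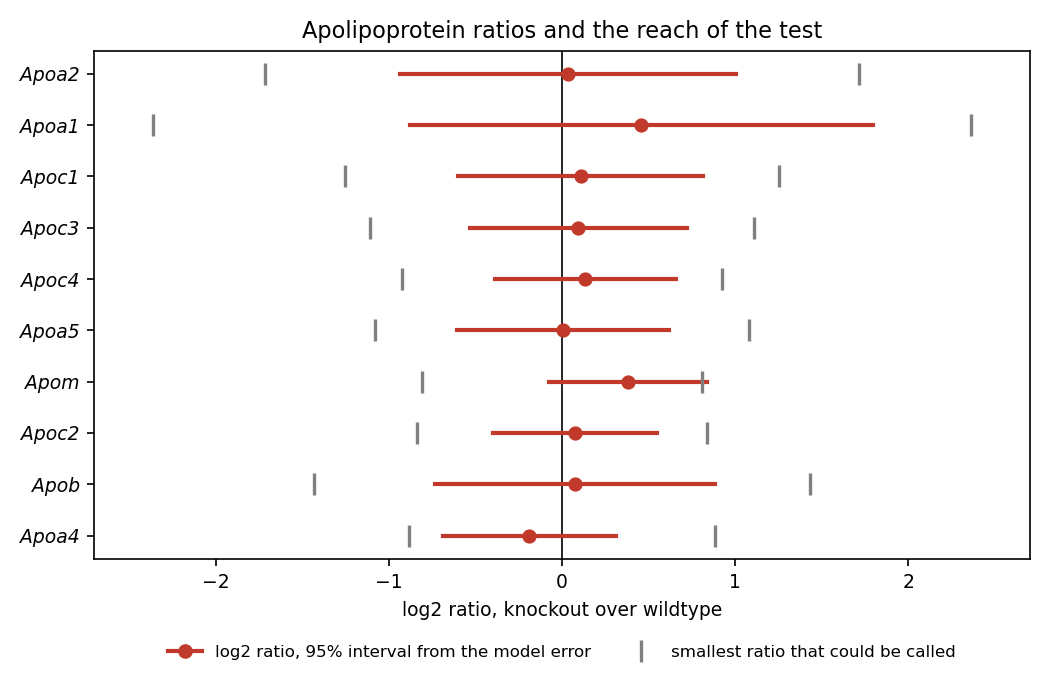
Log2 ratio of knockout over wildtype for each apolipoprotein gene (red point) with its 95% interval from the authors' model error (red line), and grey ticks at the smallest ratio in either direction that could have been called. Every interval spans 0, and the ticks lie widest for Apoa1 (2.36), Apoa2 (1.72) and Apob (1.43).

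The errors set what could have been seen. All 10 intervals span 0. For 8 of the 10 the interval stays below a 2-fold rise, the exceptions being Apoa1 and Apoa2, and for all 10 it stays above a fall to 0.5 times the wildtype level as deposited. That lower bound depends on the scaling. It held for 8 of 10 at an equal FPKM sum in both groups (not for Apoa1 and Apoa2), for 9 at the same sum without Saa1 and Saa2 (not for Apoa2), and for 7 after quantile normalization (not for Apoa1, Apoc1 and Apoc3). The smallest z of any called gene was 3.46. At that z a member needed at least a 1.75-fold difference (Apom) and up to a 5.14-fold difference (Apoa1) to be called. The SE was larger for the most abundant genes, though not for abundant genes in general. It had a median of 0.28 over all tested genes, of 0.35 over the 82 tested genes with a mean of at least 1000 FPKM, and of 0.32 over the members. Among those 82 genes 4 were called. With tested genes put in 20 classes by level, the median SE was 0.25 in the class of Apoa2 and 0.23 in that of Apoa4.

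Apob (chromosome 12, 7977677 to 8016839), the scaffold of very low density lipoproteins, was at 288 FPKM in knockout livers and 273 FPKM in wildtype livers (0.08 ± 0.41). Per length it was the lowest member but Apoa4. Its transcript is long, 13934 bases in 29 exons in GENCODE against 518 bases for Apoa2, and FPKM times that length puts it at 9.42% of the members' total in knockout livers and 10.3% in wildtype livers. By that product Apoa1 came first, with 38.9% in knockout and 32.8% in wildtype livers, and Apoa2 next, with 23.1% in knockout and 26.0% in wildtype livers.

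The transcript of Apob is edited in mouse liver. The deaminase Apobec1 turns a cytidine into uridine, so that a glutamine codon becomes a stop and a short form of the protein is made. The site (chr12:8008048-8008077, plus strand, mm10, in exon 26 of 29) is shown because the editing enzyme was measured beside its target. Capitals mark the edited cytidine, base 6535 of the coding sequence and the first base of codon 2179 of 4505, and the 11 bases of the mooring sequence that the editing complex needs.
Apob: gcgataCaattTGATCAGTATAttaaagat

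Apobec1 was at 8.37 FPKM in knockout livers and 5.49 FPKM in wildtype livers (log2 ratio 0.61 ± 0.29). Its p in the authors' deposited table was 0.0334 and its q 0.790, so it did not pass. The RNA-binding cofactor A1cf was at 18.6 FPKM in knockout and 25.5 FPKM in wildtype livers (-0.46 ± 0.23, q = 0.889 in the authors' deposited table). Editing itself was not analysed here, since it needs reads.

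The members sit on 5 chromosomes, and 7 of the 10 lie in 2 clusters. Apoa1, Apoc3, Apoa4 and Apoa5 span 43.3 kb of chromosome 9, with Apoc3 on the minus strand and the others on the plus strand. Within that stretch the level of Apoa1 was 185 times that of Apoa4 in knockout livers and 118 times in wildtype livers, although their loci are 10377 bases apart. On chromosome 7, Apoc2, Apoc4 and Apoc1 span 21.1 kb, all on the minus strand, next to Apoe. There Apoc1 was highest, Apoc4 next and Apoc2 lowest, with Apoc1 at 23.3 times Apoc2 in knockout livers and 22.8 times in wildtype livers. The gap between Apoc2 and Apoc4 is 142 bases. The chromosome 9 cluster held 40.6% of the members' FPKM in knockout livers and 36.0% in wildtype livers, and the chromosome 7 cluster 22.3% in knockout livers and 23.3% in wildtype livers.

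**Figure D3:**
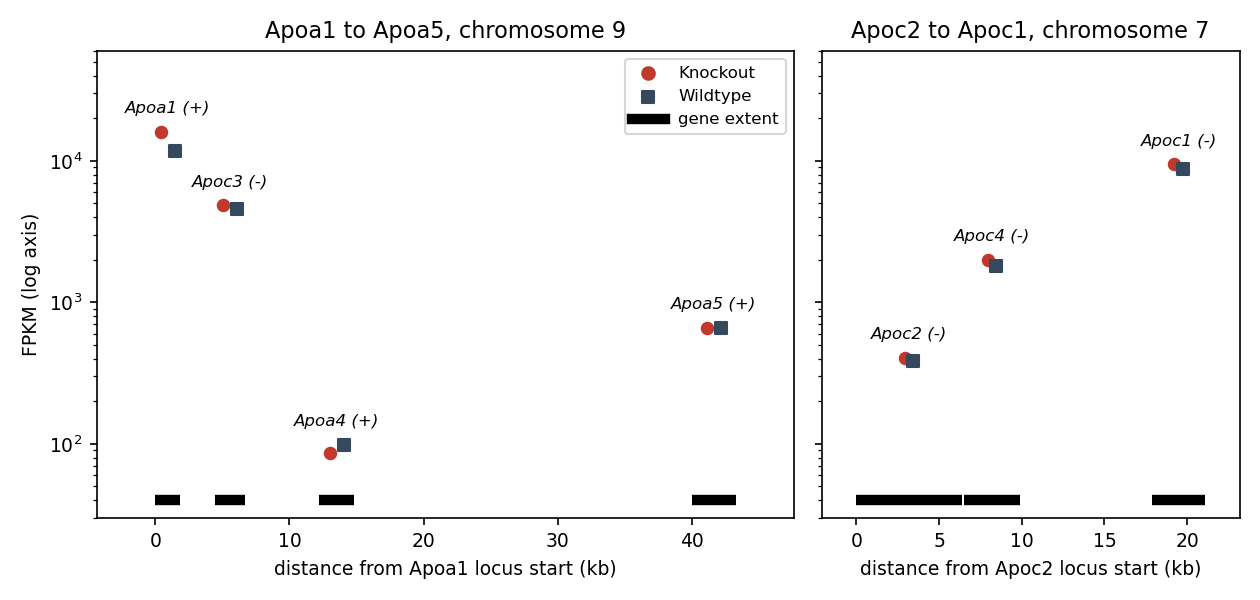
FPKM (log axis) of clustered apolipoprotein genes against distance along the chromosome in kb, with the knockout value (red circle) left of the wildtype value (dark square), gene extents as black bars and strand in brackets. Within the chromosome 9 cluster levels differ by up to 185 times in knockout livers and 118 times in wildtype livers, while no gene differs between the groups by more than 1.37-fold.

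Within 50 kb of a member lie 26 other genes, of which 20 were tested and 0 called, with 4 at an unadjusted p under 0.05. Over all tested genes 1.08% were called and 5.29% had such a p. Without Apoe, which has no value, the median level of the other 25 was 10.1 FPKM in knockout livers and 8.11 FPKM in wildtype livers. The smallest p belonged to Pcp4l1, a Pcp4-like gene near Apoa2, at 2.67 FPKM in knockout and 5.42 FPKM in wildtype livers (-1.02 ± 0.35, q = 0.195 in the authors' deposited table). Relb, an NF-kappaB subunit near Apoc2, was at 2.01 FPKM in knockout and 0.932 FPKM in wildtype livers (1.11 ± 0.41, q = 0.315 in the authors' deposited table). No locus of the deposited table overlaps a member.

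The signs of the members' ratios depend on how the groups are scaled. Listed FPKM add up to 646306 in knockout livers and to 564749 in wildtype livers. Bringing both to the same sum moves every ratio down by 0.19, to a median of -0.20 over all tested genes. The members' median was then -0.11, with 2 of 10 ratios above 0 (Apoa1 at 0.26 and Apom at 0.19) and Apoa4 at -0.38. Over all genes 49 were called higher and 140 lower at that scaling, beside 66 and 58 as deposited. After quantile normalization Apom alone was above 0, at 0.26, Apoa1 and Apoa2 were at 0.00 because their ranks did not differ, and Apoc3 was at -0.59. No member was called under any of these scalings. Apoa4 was below 0 and Apom above 0 in all of them.

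**Figure D4:**
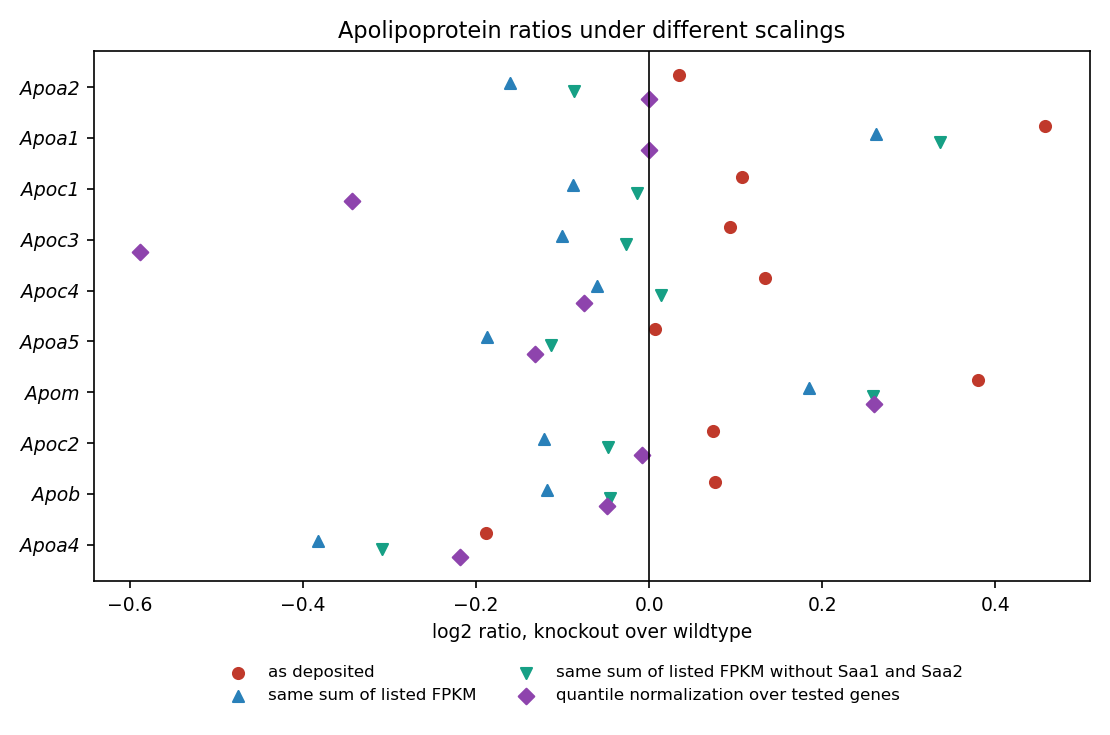
Log2 ratio of knockout over wildtype for each apolipoprotein gene as deposited, at an equal FPKM sum in both groups, the same without Saa1 and Saa2, and after quantile normalization. Most genes lie right of 0 as deposited and left of 0 after scaling to the same sum, while Apom stays right of 0 and Apoa4 left of 0 in all 4.

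Genes that build, remodel and take up lipoproteins, or that regulate apolipoprotein genes, were counted in 7 lists of 116 genes in the table. These lists also cover lipases, other genes with apolipoprotein names or roles, and sphingosine-1-phosphate genes, so not every entry is a lipoprotein gene. Of 104 tested, 2 rose, 1 fell and 101 did not pass, beside 0.573% of all tested genes called higher and 0.504% called lower. Their median log2 ratio was 0.01.

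In HDL remodelling 1 of 13 tested genes fell and 0 rose, with a median of 0.04. Lipg, endothelial lipase, which hydrolyses HDL phospholipid, was at 4.94 FPKM in knockout livers and 12.4 FPKM in wildtype livers (-1.32 ± 0.25, q = 4.47e-05 in the authors' deposited table). The cholesterol exporter Abca1, which loads Apoa1 with lipid, was at 14.8 FPKM in knockout and 19.0 FPKM in wildtype livers, and Lcat, which Apoa1 activates, at 317 FPKM in knockout and 285 FPKM in wildtype livers. Pltp, the phospholipid transfer protein, was at 18.8 FPKM in knockout and 33.4 FPKM in wildtype livers with a large error (-0.83 ± 0.52). These 3 did not pass.

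In the assembly of Apob particles 0 of 24 tested genes were called, and the median was -0.09. An unadjusted p under 0.05 was held by 3 of them (Pla2g12b, Apobec1 and A1cf), beside 5.29% of all tested genes. Mttp, the transfer protein that lipidates Apob, was at 68.8 FPKM in knockout livers and 78.3 FPKM in wildtype livers (-0.19 ± 0.23). Pla2g12b, needed for triglyceride-rich particles to gain lipid in mouse liver, had the smallest p, at 59.8 FPKM in knockout and 35.8 FPKM in wildtype livers (0.74 ± 0.23, q = 0.102 in the authors' deposited table). Among 12 tested receptor genes 0 were called and 0 had an unadjusted p under 0.05. Their median was 0.13. Stab2, a scavenger receptor of sinusoidal endothelium, had the smallest p (5.82 FPKM in knockout and 7.18 FPKM in wildtype livers).

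Of 8 tested lipases and their regulators 0 passed, with a median of -0.17. The lowest ratio was that of Gm6484 (now Angptl8), a liver inhibitor of lipoprotein lipase, at 44.4 FPKM in knockout livers and 82.6 FPKM in wildtype livers (-0.90 ± 0.28, q = 0.0967 in the authors' deposited table). It shares its listed locus with Dock6. Angptl8 passed as lower at an equal sum of FPKM in both groups, at the same without Saa1 and Saa2, and with the SE of genes of like level. Angptl4, another lipase inhibitor, was at 61.9 FPKM in knockout and 89.4 FPKM in wildtype livers (-0.53 ± 0.23).

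Among 28 tested regulators of apolipoprotein genes 1 rose and 0 fell, with a median of 0.03. Nr1d1 (REV-ERB-alpha), a clock repressor known to lower Apoc3 expression in mice, was at 41.0 FPKM in knockout livers and 19.2 FPKM in wildtype livers (1.10 ± 0.23, q = 0.000429 in the authors' deposited table). Hnf4a, the nuclear receptor on which many apolipoprotein genes depend in liver, was at 142 FPKM in knockout and 152 FPKM in wildtype livers (-0.09 ± 0.26). Creb3l3, an activator of Apoa4, Apoa5 and Apoc2 in mouse liver, was at 143 FPKM in knockout and 145 FPKM in wildtype livers (-0.02 ± 0.24).

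The other genes with apolipoprotein names or roles held 1 rise among 11 tested, with a median of 0.29. This was Lrg1, a leucine-rich plasma glycoprotein of the acute phase that is no apolipoprotein in the strict sense, at 1237 FPKM in knockout livers and 424 FPKM in wildtype livers (1.55 ± 0.35, q = 0.00185 in the authors' deposited table). Saa4, the constitutive serum amyloid A of HDL, was at 293 FPKM in knockout and 183 FPKM in wildtype livers (0.68 ± 0.26, q = 0.367 in the authors' deposited table). Genes listed for making, breaking down, moving or sensing sphingosine-1-phosphate, the lipid that Apom carries, held 0 calls among 8 tested, with a median of 0.17. S1pr2, one of its receptors, had the smallest p, at 2.59 FPKM in knockout and 1.67 FPKM in wildtype livers.

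**Figure D5:**
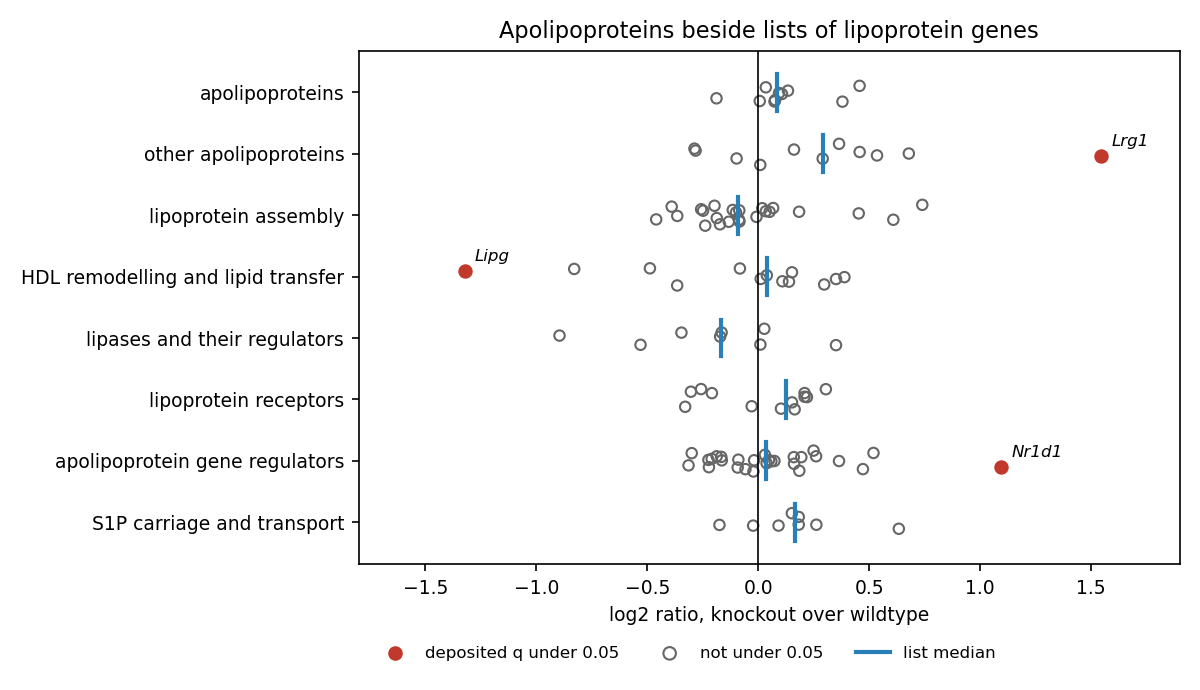
Log2 ratios of knockout over wildtype for the tested genes of the apolipoprotein set and of 7 lists of related genes, with genes at q under 0.05 in the authors' deposited table filled and named and each list's median as a blue bar. The 10 apolipoproteins lie between -0.19 and 0.46, and the called genes are Lrg1, Lipg and Nr1d1.

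Enpp7 stood near the floor, at 0.141 FPKM in knockout livers and 0.0541 FPKM in wildtype livers, and was not tested, so it does not check the labels. None of the 12 tested hepatocyte markers passed, and Fgb, which is also an acute phase gene, was the 1 with an unadjusted p under 0.05. The intestine also makes apolipoproteins, among them Apoa1, Apoa4 and Apob. The 20 intestinal epithelium markers summed to 108 FPKM in knockout livers and 87.6 FPKM in wildtype livers, and Chga is listed at 0 in wildtype livers. Most of the list was near the floor, with a median of 0.423 FPKM in knockout livers and 0.163 FPKM in wildtype livers. Of 9 tested 0 were called, 3 had an unadjusted p under 0.05 (Tff3, Reg3b and Lyz1) and 8 had a ratio above 0. Their median log2 ratio was 0.73. Over all tested genes 5.29% had such a p and 49.9% a ratio above 0. Tff3, a mucosal trefoil peptide, had the smallest p, at 48.8 FPKM in knockout livers and 23.9 FPKM in wildtype livers (1.03 ± 0.31, q = 0.0775 in the authors' deposited table). Fabp2, the intestinal fatty acid binding protein, was at 42.9 FPKM in knockout livers and 54.7 FPKM in wildtype livers (-0.35 ± 0.23), the only tested ratio of the list below 0. These 2 were the highest of the list and lay below the lowest member. The 24 acute phase genes summed to 72523 FPKM in knockout and 13869 FPKM in wildtype livers. Of 23 tested, 14 rose, with log2 ratios from 1.32 to 7.66: Saa1, Saa2, Saa3, Lcn2, Orm1, Orm2, Orm3, Mt1, Mt2, Apcs, Socs3, Lbp, Serpina3n and Itih3. The 13 neutrophil and monocyte markers summed to 114 FPKM in knockout and 8.52 FPKM in wildtype livers. Of 10 tested, S100a8, S100a9, Ngp and Ltf rose, beside 0.573% of all tested genes called higher. In wildtype livers Ngp (0.0928 FPKM) and Ltf (0.0158 FPKM) were near the floor. The 12 Kupffer cell and macrophage markers, all tested, summed to 591 FPKM in knockout and 381 FPKM in wildtype livers, and Marco and C1qa rose. The part of these shifts in the ratios of the apolipoprotein genes was not tested.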

How the data were processed

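Liver RNA of 3 knockout and 3 wildtype libraries was sequenced as single-end reads of 50 nt, per the labels. Per the submitters' processing notes, Bowtie2 and mm10 were used; no source here names the quantification program. The authors deposited a table of all genes, with 1 value per group treated as FPKM from its Cuffdiff layout, a log2 ratio and a z statistic (both handled as a score, since genes at 0 carry placeholders), and the authors' p-value and q-value. Their short list of 95 genes holds 0 of the members. The deposited ratio is wildtype over knockout and was turned round. The SE is the ratio divided by z. The q was matched by Benjamini-Hochberg adjustment over the 11515 tested genes (largest difference 1.99e-06).

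No value per library was used, so no limma fit could be made, and the authors' test was used as fixed for that case. Depth, replicate spread and counting intervals are unknown, and p-values rest on libraries that no source ties to separate mice beyond the animal numbers. Tested genes with a group at 0, 59 in number, have no ratio and kept their deposited p in the alternatives. Members and lists were chosen with earlier results of these data known. Named were all members, the called genes of each list or else that with the smallest p, neighbours within 50 kb with the 2 smallest p, and the 10 most abundant genes; others were chosen after their values were seen. Starts have 1 added. Intervals of 95% use 1.96 SE. Calculations used Python 3.11.15, numpy 2.4.6, pandas 2.3.3 and scipy 1.17.1, and figures matplotlib 3.10.9. Only the recalculation of p and q was run on simulated data. Their noise was drawn from the same SE, so that run checks the arithmetic and not the error model. Alternatives changed the scaling of the groups, the pseudocount, the filter on low values and the SE.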

Additional observations from a re-analysis of the deposited data

How the results depend on the processing

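Under 8 alternatives, 1 of them (the sum without Saa1 and Saa2) added after the data were seen, the count of members called stayed at 0 and their median log2 ratio ranged from -0.11 to 0.10. Over all tested genes 189 were called at an equal sum of FPKM and 268 (164 higher, 104 lower) with the SE of genes of like level in place of each gene's own, beside 124. That SE gave 6 called pathway genes in place of 3, adding Angptl8, Pla2g12b and Pltp. The classes of level are broad, and Apoa2 and Apob share an SE of 0.25 there. Each gene's own error is set aside in this setting, so its added calls are no firmer evidence. Pltp, whose own SE is 0.52, passed only there. The share of higher calls was 53.2% as deposited, 25.9% at the same sum and 35.3% (53 higher, 97 lower) at the same sum without Saa1 and Saa2. Signs of uncalled ratios turned in 3 settings; both sum scalings subtract the same amount (0.19 or 0.12) from each ratio by construction. At the same sum they were -0.16 for Apoa2, -0.19 for Apoa5, -0.12 for Apob, -0.088 for Apoc1, -0.12 for Apoc2, -0.10 for Apoc3 and -0.060 for Apoc4. Without Saa1 and Saa2 in that sum they were -0.087 for Apoa2, -0.11 for Apoa5, -0.045 for Apob, -0.014 for Apoc1, -0.047 for Apoc2 and -0.027 for Apoc3. After quantile normalization they were -0.13 for Apoa5, -0.049 for Apob, -0.34 for Apoc1, -0.0079 for Apoc2, -0.59 for Apoc3 and -0.076 for Apoc4. By construction that scaling sets each value by its rank in the group. Among listed genes Apoc3 ranked 17 in knockout and 13 in wildtype livers, and Apoc1 ranked 7 in knockout and 5 in wildtype livers. Why ranks moved was not tested. No paired analysis was possible because the deposited values are pooled per group and the animal numbers of the groups do not match; for the same reason no library could be left out.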

Other observations

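Apof, known in humans as an inhibitor of lipid transfer, and Apon, beside it on chromosome 10, both stood above the wildtype level in knockout livers without passing. Apof was at 494 FPKM in knockout livers and 360 FPKM in wildtype livers (log2 ratio 0.46 ± 0.28), and Apon at 321 FPKM in knockout and 222 FPKM in wildtype livers (0.54 ± 0.25, q = 0.774 in the authors' deposited table). Apoh, beta-2-glycoprotein I, was at 2088 FPKM in knockout and 1707 FPKM in wildtype livers and Clu, clusterin or apolipoprotein J, at 1139 FPKM in knockout and 885 FPKM in wildtype livers, both within about 1 SE of no difference. In the intracellular Apol family, Apol9b was at 54.7 FPKM in knockout and 54.3 FPKM in wildtype livers, Apol7a at 41.6 FPKM in knockout and 44.5 FPKM in wildtype livers and Apol9a at 27.5 FPKM in knockout and 24.5 FPKM in wildtype livers. With near-identical copies in this family the separate values are uncertain. These genes were chosen after their values were seen.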
